A study of Mus musculus with 44 samples.

Results

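Described here are 10 mouse genes for cytosolic and mitochondrial heat shock proteins, out of 23234 genes in the deposited table. They are Hsph1, Hspa8, Hspa1a, Hspa1b, Dnajb1, Hsp90aa1, Hsp90ab1, Hspd1, Hspe1 and Hspb1. They were taken by name, with no threshold on a measured value, though earlier results of these data were known. All 10 reached 1 FPKM (fragments scaled to transcript length and to the library's total) in 3 or more of the 42 libraries from time points with replicates, the filter that left 13907 genes to test. Hspb1 passed it on 15 of all 44 libraries and was listed at 0 in 27.

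The libraries came from a time course of fetal liver induced leukocyte stem (iLS) cells of the C57BL/6J strain, which are multipotent blood progenitors obtained with Id3-ERT2, a fusion of the inhibitor Id3 to a ligand-binding domain. In the expansion culture the cells were kept on TSt-4 stromal feeder cells with IL-7 at 20 ng/mL, SCF and Flt-3L at 10 ng/mL each, and the ERT2 ligand 4-OHT at 40 nM. Differentiation toward B cells was then started on the same feeder line with IL-7 at 5 ng/mL and without 4-OHT. The course has 3 libraries for each of 14 time points (0, 0.5, 1, 2, 4, 6, 8, 10, 12, 24, 48, 72, 96 and 144 h after the change) and 1 library each at 120 h and 168 h. The fusion, the strain and the feeder line were shared by all time points, so no untreated group runs beside the course, and 0 h is the reference. The labels do not say that replicates were separate cultures, and the spread that the p-values rest on may be technical. They do not say either that feeder cells were taken out before RNA was isolated.

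Heat shock proteins are molecular chaperones that bind unfolded or aggregated proteins. HSP70 proteins (Hspa genes) bind exposed hydrophobic stretches in a cycle of ATP hydrolysis, J-domain proteins such as the one encoded by Dnajb1 hand them their clients, and HSP110 (Hsph1) exchanges their nucleotide. HSP90 proteins hold kinases, steroid receptors and other clients near their native state, while HSP60 (Hspd1) and its lid HSP10 (Hspe1) form the folding chamber of the mitochondrial matrix. Hspa8 and Hsp90ab1 are known as constitutive members. Hspa1a, Hspa1b, Dnajb1, Hsph1, Hsp90aa1 and Hspb1 are known as inducible through the heat shock factor HSF1, which binds inverted repeats of the motif GAA.

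The summed FPKM of a library lay between 516025 and 701705, between 11520 and 12316 genes reached 1 FPKM, and libraries of the same time point correlated at 0.893 to 0.9438 across genes. Markers of both cell types in the culture moved over the course. The summed FPKM of 23 stromal markers, mainly matrix and contractile genes, was, at 0, 0.5, 6, 24 and 144 h in turn, 1494 ± 919, 7450 ± 965, 10720 ± 1201, 9251 ± 856 and 2828 ± 779 (SD, n = 3 each). For 20 general blood-cell markers such as Ptprc it was 2825 ± 395, 1433 ± 64.2, 938.4 ± 42.2, 656.5 ± 264 and 1995 ± 176. None of these 43 markers was listed at 0 in any library, but the stromal markers Lum and Dcn, under the filter, were listed at 0 in 44 and 43 of the 44. In such bulk samples, fewer cells of a type and less RNA per cell cannot be told apart, so a level here is one of the mixed culture. The part of this shift in the changes below was not tested apart from the alternatives given beside them.

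Over the 14 replicated time points, 8 of the 10 genes passed the moderated F test of limma for any departure from 0 h, at an adjusted p under 0.05. Over all genes tested the share was 56%. The 8 count both Hspa1a and Hspa1b, near-identical copies whose reads may have been split between them. Hsph1 (adjusted p = 4.167e-07), Dnajb1 (5.44e-06), Hspa8 (3.991e-05) and Hspe1 (8.513e-05) had the smallest values among the members. Hsp90aa1 (0.2107) and Hspb1 (0.3354) did not pass. Without replicate 1 of every time point 5 members passed, and likewise 5 without replicate 2. The share of all genes passing the F test under these omissions is not given here. Fewer of all genes were called then: at 24 h against 0 h 34.5% and 28.9%, beside 43.3% with all libraries.

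The members did not move as a block. At 0.5 h 2 were higher than at 0 h and none lower, where 14.3% of all genes were called higher and 7.29% lower. At 1 h 1 was higher (16.8% of all genes higher, 15.3% lower), and at 2 h 1 was lower (16.5% and 18.5%). At 4 h 3 were higher and 2 lower, beside 18% and 17% of all genes. At 6 h and at 8 h 2 were higher and 1 lower, beside 19% and 19.2% of all genes at 6 h and 20.4% and 19.2% at 8 h. The counts were 3 and 1 at 10 h (21.1% and 20.5%). No member was lower from 12 h on. At 12 h 2 were higher (21.6% and 20.3%). The 24 h libraries gave 3 (20.8% and 22.5%), those of 48 h 2 (22% and 16.4%). At 72 h 3 were higher (17.2% and 8.23%), and at 96 h 2 (7.79% and 2.49%). At 144 h no member was called by limma (5.64% and 3.24%), with 2 members at an unadjusted p under 0.05. These shares of the 10 were above those of all genes at some times and below them at others. The largest number was 5 at 4 h, which counts both Hspa1a and Hspa1b, beside 35% of all genes called. At 2 h 1 member was called beside 35%, and at 24 h 3 beside 43.3%. None of these differences in share was tested. The median log2 change of the 10 was highest at 10 h, at 0.54, beside -0.04 for all genes tested. All these comparisons share the 0 h libraries.

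The separation of the libraries was also counted, without a test. For 0.5, 1, 2, 4, 6, 8 and 10 h in turn, 6, 3, 3, 6, 5, 6 and 7 of the 10 members had all 3 libraries above or all 3 below those of 0 h. Of all genes 39.2%, 46.8%, 49%, 48.3%, 49.9%, 52.3% and 53% did. For 12, 24, 48, 72, 96 and 144 h the members numbered 5, 4, 4, 3, 5 and 1, and the shares of all genes were 51%, 47.4%, 50.2%, 37%, 24.2% and 23.1%. Between 6 and 24 h 6 members lay apart in this way (16.6% of all genes), and between 24 and 144 h 2 (37.2%).

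These counts changed with the scaling. Scaled to the blood-cell markers, 6, 9, 9, 7, 7 and 3 members were higher at 0.5, 2, 6, 24, 72 and 144 h and none lower. Under it 38.2%, 46.8%, 69.7%, 81.2%, 61.3% and 8.97% of all genes were called, between 94.6% and 99.9% of them higher. That scaling moved the all-gene median by 0.78, 0.94, 1.31, 1.94, 0.94 and 0.47 on the log2 scale. With the mean of the stromal markers as a covariate no member was called at 0.5, 2, 6, 24 or 72 h, where 21, 67, 16, 6 and 4 of the 13907 genes were called.

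**Figure D1:**
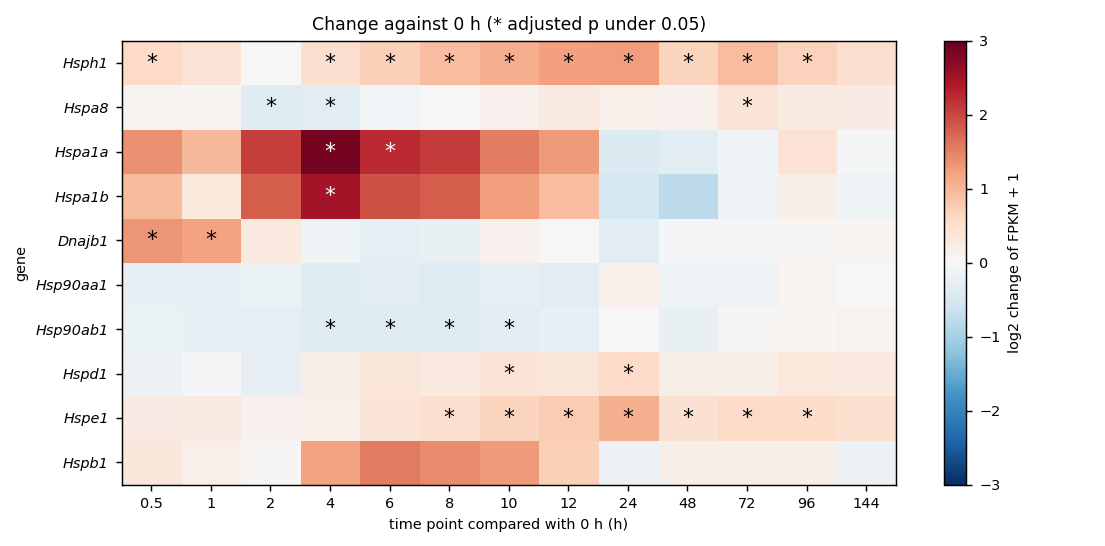
Log2 change of FPKM + 1 against 0 h (colour) of each heat shock gene (rows) at each of 13 later time points (columns, in h); stars mark an adjusted p under 0.05. The stars of Dnajb1 stand at 0.5 and 1 h, those of Hspa1a at 4 and 6 h, and those of Hsph1 and Hspe1 run to 96 h.

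Levels per length differed widely between members. The mean over the 42 libraries was 1269 FPKM for Hspa8, 1199 for Hsp90ab1, 326.7 for Hspe1, 319.2 for Hsp90aa1 and 292 for Hspd1. It was 44.5 for Hsph1, 28.4 for Dnajb1, 7.63 for Hspa1b, 7.35 for Hspa1a and 1.22 for Hspb1. Hspa8 and Hsp90ab1 overlapped in their ranges over all 44 libraries (880.1 to 1588 and 947.8 to 1896), as did Hspe1, Hsp90aa1 and Hspd1 with each other, and Hspa1a with Hspa1b. The highest time-point mean over the lowest was 26.5-fold for Hspa1a and 24.0-fold for Hspa1b. It was 3.21-fold for Dnajb1, 2.45-fold for Hsph1, 2.13-fold for Hspe1 and 1.79-fold for Hspd1. Hspa8 (1.67-fold), Hsp90aa1 (1.47-fold) and Hsp90ab1 (1.44-fold) had the smallest ratios, and Hspb1 has none, being listed at 0 in all libraries of some time points.

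**Figure D2:**
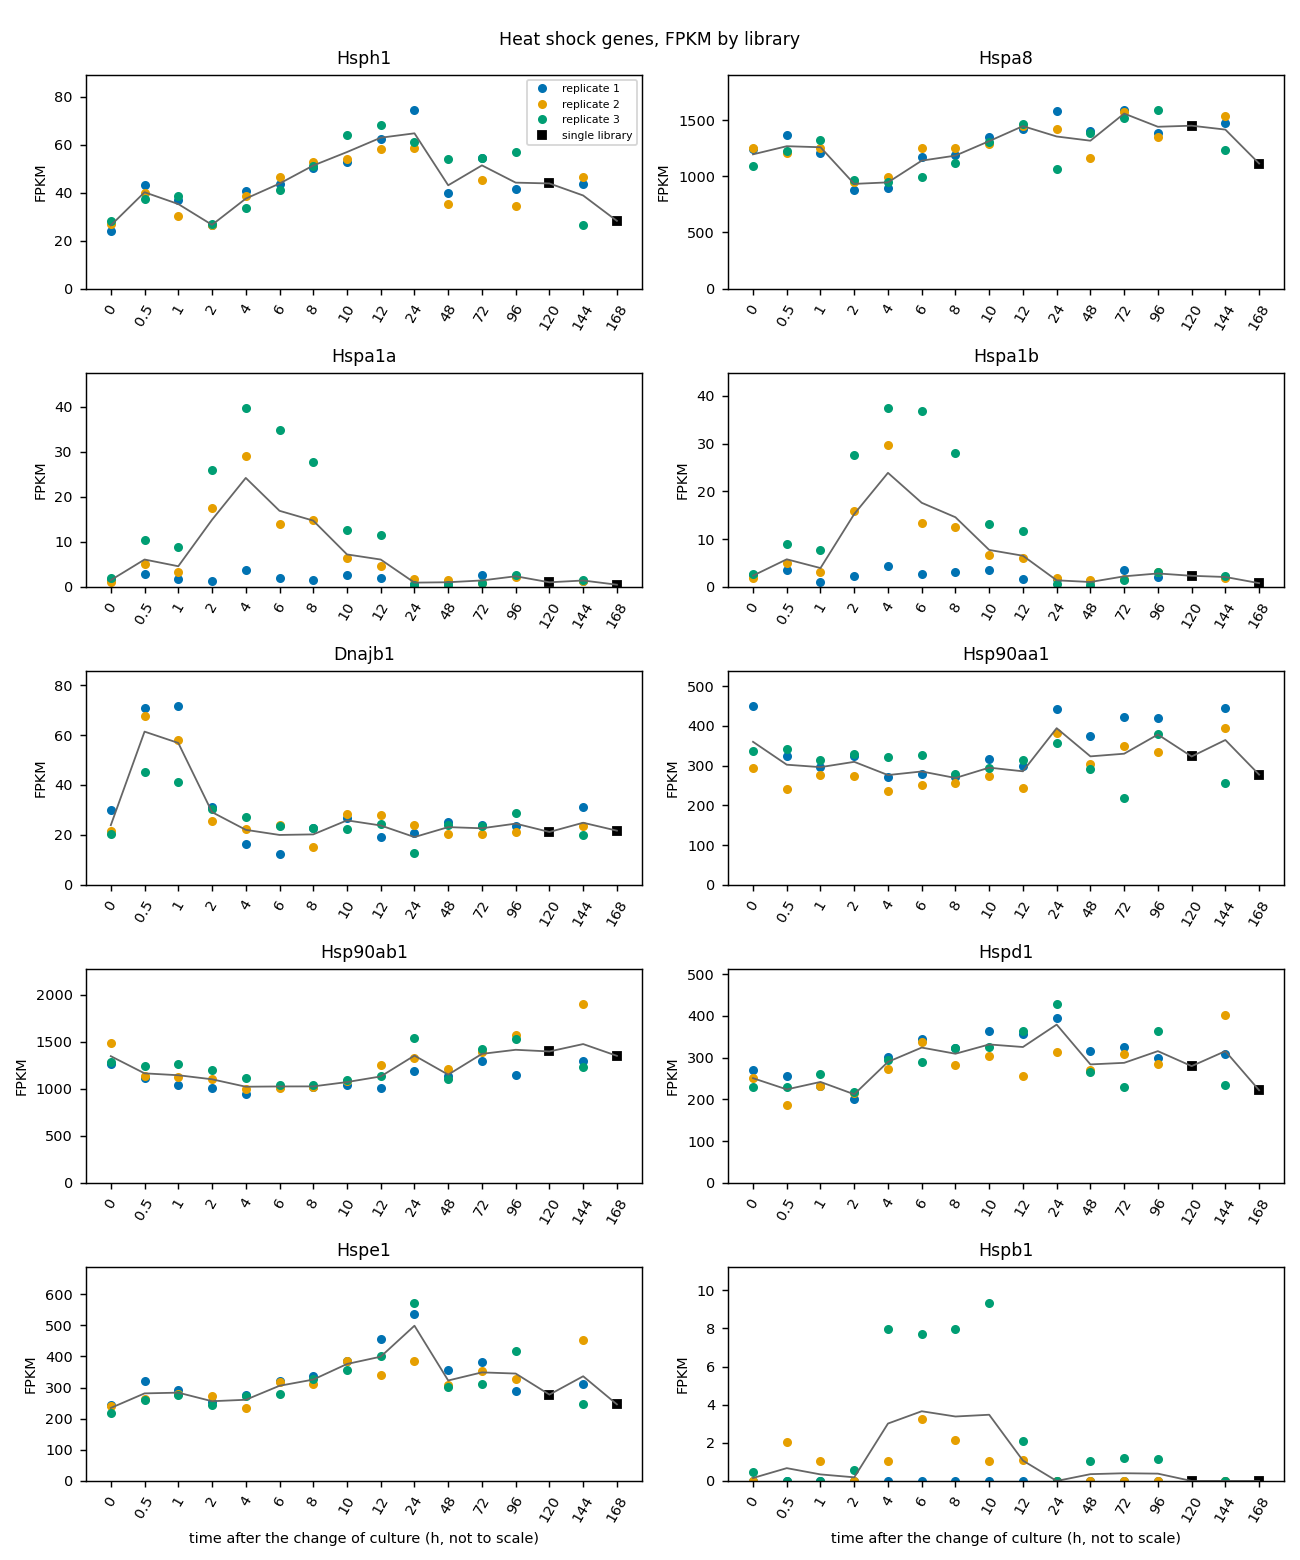
FPKM (vertical axes, from 0, a scale of its own for each gene) of the 10 heat shock genes in every library against time after the change of culture in h (not to scale); colours are replicates, black squares the single libraries at 120 and 168 h, and lines join the means. Dnajb1 stands above its other values at 0.5 and 1 h, with means of 61.4 and 56.8 FPKM, and Hsph1 and Hspe1 are highest at 24 h. The replicates of Hspa1a and Hspa1b part from 0.5 to 12 h.

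Promoter sequence was read for the members that RefSeq's table of the GRCm38.p6 build names, 7 of the 10 and 10 windows, each from 250 bases before to 50 bases after a start site. Hspa8, Hsp90aa1 and Hsp90ab1 had no entry. Paired GAA repeats were searched as GAANNTTC and TTCNNGAA, each of which reads the same on both strands, and runs of 3 as GAANNTTC followed by any 2 bases and GAA, or TTCNNGAA followed by any 2 bases and TTC, which contain the pairs. A pair was found in 7 of the 10 windows, from 6 of the 7 matched members, with none in either window of Dnajb1. Of all 32851 windows of this length 15.1% held one. The 7 windows are not separate hits, since both Hsph1 windows overlap, those of Hspe1 and Hspd1 share 285 bases and those of Hspa1a and Hspa1b are 98.7% identical. Runs of 3 repeats stood in windows of Hspe1, Hspd1 and Hsph1, and in 0.603% of all windows. The stretches below are 100 bases upstream of the start site that hold such matches, shown because they are the sequences in which members that moved together, or that share reads, can be compared, with the matches in capitals.
Hspa1a, chr17:34972207-34972306, minus strand, identical in Hspa1b at chr17:34959289-34959388: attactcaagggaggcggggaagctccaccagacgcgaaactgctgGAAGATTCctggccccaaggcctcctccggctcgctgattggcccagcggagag
Hspe1, chr1:55088028-55088127, plus strand, also within a window of Hspd1 on the other strand: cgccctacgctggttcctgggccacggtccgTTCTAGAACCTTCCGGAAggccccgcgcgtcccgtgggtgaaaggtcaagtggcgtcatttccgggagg
Hsph1, chr5:149636337-149636436, minus strand: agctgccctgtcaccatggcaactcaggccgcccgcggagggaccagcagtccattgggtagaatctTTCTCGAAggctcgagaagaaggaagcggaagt
Hspb1, chr5:135887769-135887868, plus strand: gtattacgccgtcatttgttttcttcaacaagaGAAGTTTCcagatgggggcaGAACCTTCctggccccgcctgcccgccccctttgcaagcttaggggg
A match is a description of letters in the reference and not a bound site, and the run of 3 repeats in Hsph1 lies past its start site, outside the stretch shown.

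Among the HSP110 and HSP70 genes, Hsph1 had the most time points called. Its FPKM was 24.1, 26.9 and 28.1 in the 0 h libraries and 43.3, 39.9 and 37.4 in those of 0.5 h. The 2 h libraries gave 26.6, 26.4 and 26.9. A first, short elevation at 0.5 h was thus gone at 2 h, where all 3 libraries fell within the range of 0 h. From there the values went to 43.6, 46.6 and 41.3 at 6 h, and to 74.4, 58.6 and 61.3 at 24 h. The log2 change against 0 h was 0.59 ± 0.17 (SE, adjusted p = 0.01114) at 0.5 h and 0.01 at 2 h. At 6 h it was 0.71 ± 0.17 (adjusted p = 0.001092) and at 24 h 1.26 ± 0.17 (4.273e-07). In all, Hsph1 rose at 10 of the 13 later time points, with no library of those times within the range of 0 h. At 1 h (0.40, adjusted p = 0.06684) and 144 h (0.50, 0.05584) it did not pass.

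The later level of Hsph1 came down after 24 h. At 144 h its libraries stood at 43.6, 46.4 and 26.6 FPKM, below every library of 24 h, a log2 change of -0.75 ± 0.17 (adjusted p = 0.000852). In the comparison of 144 h with 24 h, 2 members were lower and none higher (17.4% of all genes were called higher and 15.6% lower). The call at 0.5 h was lost without 0 h replicate 1 (adjusted p = 0.06047) or 0.5 h replicate 1 (0.05304). The call at 4 h was lost without 0 h replicate 1 or 4 h replicate 1 or 2, and that at 96 h without 0 h replicate 1 or 96 h replicate 3. Over single-library omissions the log2 change of Hsph1 at 144 h against 0 h ran from 0.36 to 0.75. The highest came without 144 h replicate 3, the library with the lowest value, where a larger change follows from the choice.

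Hspa8, the constitutive HSC70 and the member with the highest mean over the 42 libraries, kept within a narrow band. At some times Hsp90ab1 stood above it, as at 0 h with a mean of 1346 FPKM against 1196. The FPKM of Hspa8 in single libraries is given next. Hspa8 stood at 1241, 1249 and 1096 FPKM in the 0 h libraries, went to 880.1, 948 and 970 in those of 2 h and reached 1588, 1568 and 1520 in those of 72 h. All 3 libraries were below those of 0 h at 2 h and all 3 above at 72 h. It fell by 0.36 on the log2 scale at 2 h (SE 0.12, adjusted p = 0.01909) and by 0.34 at 4 h (0.02643), though scaled to the blood-cell markers both turn to 0.75 and 0.96 higher, and the 2 h call was also lost with median-ratio scaling (-0.21, adjusted p = 0.1151). Quantile normalization ended both calls (-0.24 and -0.11). It rose by 0.38 ± 0.12 at 72 h (adjusted p = 0.01539). The call at 2 h was lost without 0 h replicate 1 or 2 or 2 h replicate 1, that at 4 h without 0 h replicate 1 or 2 or 4 h replicate 1 or 3, and that at 72 h without 0 h replicate 3.

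Hspa1a and Hspa1b, the 2 copies of the stress-inducible HSP70 gene, lie near each other on chromosome 17 and their promoter windows differ at 4 of 300 bases (98.7% identical). The differences are C44T, T47C, T249G and C276T, counted from the 5′ end of the window, with the base of Hspa1a first. Reads from near-identical copies can be split between the genes in ways the sources used here do not describe, so the values of each are uncertain. Over the 44 libraries the ratio of Hspa1b to Hspa1a ran from 0.597 to 2.32, with a median of 1.12. At 48 h it was 0.995 in all 3 libraries.

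At 0 h Hspa1a stood at 1.47, 1.09 and 1.85 FPKM in replicates 1, 2 and 3. The values were 2.77, 5.08 and 10.3 at 0.5 h, all above those of 0 h but not called (adjusted p = 0.2659 in limma). At 1 h they were 1.63, 3.30 and 8.74. At 2 h the values were 1.25, 17.5 and 25.9. Those of 4 h were 3.81, 29.1 and 39.6, and those of 6 h 1.97, 13.8 and 34.8. Replicates 2 and 3 were therefore over 10 FPKM at 2, 4 and 6 h and replicate 1 was not. By 24 h all 3 libraries were back at 0.72, 1.62 and 0.40 FPKM. Hspa1b followed the same course: it had 2.40, 1.93 and 2.66 FPKM in the 0 h libraries, 4.43, 29.8 and 37.4 in those of 4 h, and 1.63, 1.75 and 0.66 in those of 24 h.

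At 4 h the 3 libraries of Hspa1a lay above those of 0 h, with a log2 change of 2.88 ± 0.86 (adjusted p = 0.009168). At 6 h the change was 2.25 ± 0.86 (adjusted p = 0.03831). Hspa1b was called at 4 h, at 2.49 ± 0.78 (adjusted p = 0.01231), and not at 6 h (1.91, adjusted p = 0.05061). With both copies summed as 1 gene the change was 2.88 at 4 h (adjusted p = 0.01065) and 2.24 at 6 h (0.04351). These calls rest on few libraries. Without 4 h replicate 3 Hspa1a was at 2.30 at 4 h (adjusted p = 0.0668) and Hspa1b at 1.96 (0.08229), and the call of Hspa1b was also lost without 4 h replicate 2 (0.06446). At 6 h the call of Hspa1a was lost without any one of the 3 libraries of 0 h, or without 6 h replicate 2 or 3. With replicate 1 of every time point left out, Hspa1a changed by 3.19 at 2 h, 3.84 at 4 h and 3.24 at 6 h. Replicate 1 was the lowest at these times, so a larger change without it follows from the choice and is no support for a rise. The matching values without replicate 2 or 3 of every time point are not given here.

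**Figure D3:**
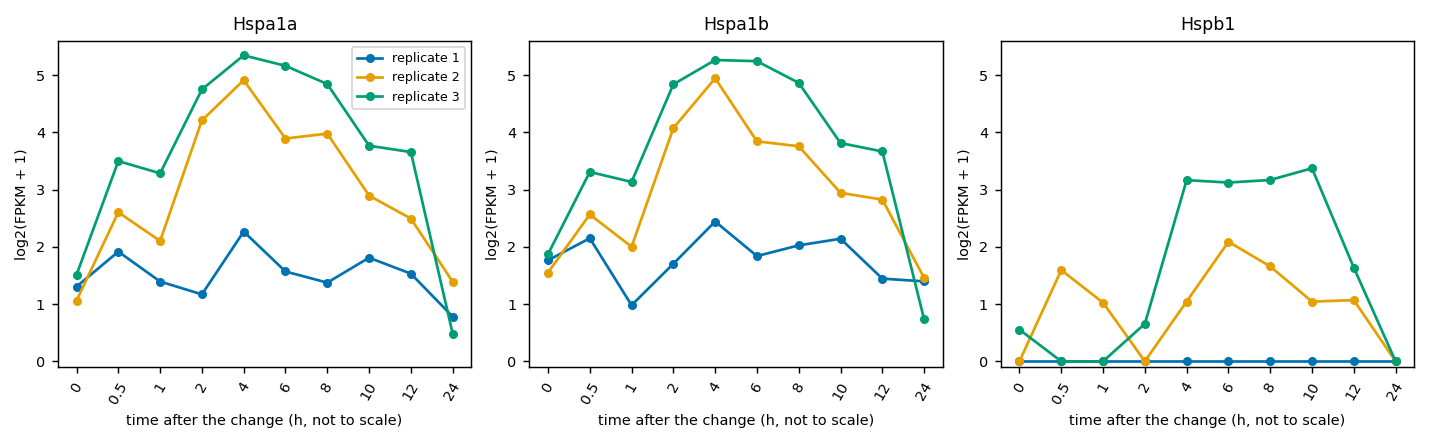
Log2(FPKM + 1) of Hspa1a, Hspa1b and Hspb1 by replicate from 0 to 24 h (time in h, not to scale; 1 library per point, lines join libraries of the same replicate number). Replicate 3 (green) lies highest from 4 to 12 h and replicate 1 (blue) lowest, and at 24 h all libraries are at or under 1.75 FPKM.

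The marker sums of the same libraries can be set beside this difference between replicates. Over the 4 libraries from 2 to 8 h, Hspa1a had a median of 1.78 FPKM in replicate 1 (1.25 to 3.81), 16.1 in replicate 2 (13.8 to 29.1) and 31.3 in replicate 3 (25.9 to 39.6). The range of replicate 1 lay apart from both others, which overlapped each other. For Hspa1b the medians were 2.82, 14.6 and 32.5 FPKM. In the same libraries the stromal sum had medians of 10560, 11180 and 9291 FPKM in replicates 1, 2 and 3, and the blood-cell sum 1103, 1082 and 912.1. The stromal sum ran from 9496 to 11100 in replicate 1, 9797 to 12360 in replicate 2 and 5842 to 10170 in replicate 3. For the blood-cell sum the ranges were 976.7 to 1214, 937.4 to 1265 and 833.6 to 1572. Library codes fall into runs of consecutive numbers, and the 10 libraries of replicate 1 from 0 to 24 h form 1 run, as do those of replicate 2. In replicate 3 the libraries from 0 to 6 h form 1 run, and those from 8 h on belong to another. The labels give these codes no meaning. Within its run, the single library at 4 h was 0.96 above that at 0 h for Hspa1a in replicate 1, 3.85 above in replicate 2 and 3.83 above in replicate 3.

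Dnajb1, whose protein stimulates the ATPase of HSP70, was called at 0.5 and 1 h and at no later time. The 0 h libraries held 29.9, 21.6 and 20.2 FPKM, those of 0.5 h 71.0, 67.8 and 45.3, and those of 1 h 71.5, 57.9 and 41.1. At 2 h the libraries were at 31.2, 25.6 and 30.5, so that 2 of 3 lay above all libraries of 0 h and 1 among them. The log2 change was 1.32 ± 0.25 at 0.5 h (adjusted p = 0.0001582) and 1.20 ± 0.25 at 1 h (0.000344). Both calls held when any one library was left out, with values of 1.20 to 1.52 for 0.5 h and 1.02 to 1.41 for 1 h. Within runs the single libraries at 0.5 h were 1.22, 1.61 and 1.13 above their 0 h library in replicates 1, 2 and 3, so all 3 moved the same way. At 0.5 h the stromal sum had also moved, from 1494 to 7450 FPKM, and with the stromal mean as covariate the adjusted p was 0.8108 (log2 change 1.45).

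The cytosolic HSP90 pair gave few calls. Hsp90aa1, the inducible form, stood at 449.1, 294.0 and 336.7 FPKM at 0 h. Its time-point means ran from 268.9 FPKM at 8 h to 394.2 at 24 h, and no comparison with 0 h was called. Hsp90ab1, the constitutive form, had 1264, 1490 and 1284 FPKM in the 0 h libraries, 947.8, 1003 and 1115 in those of 4 h, and 1022, 1010 and 1042 in those of 6 h. No library of 4, 6, 8 or 10 h reached the lowest of 0 h. The gene fell by 0.40 on the log2 scale at 4 h (SE 0.13, adjusted p = 0.02001), 0.39 at 6 h (0.02059), 0.39 at 8 h (0.0203) and 0.33 at 10 h (0.04933). Scaled to the blood-cell markers the same changes read 0.90, 1.14, 1.17 and 1.47 higher, and with median-ratio scaling (-0.32, -0.31, -0.34 and -0.27) or quantile normalization (-0.09, -0.04, -0.14 and -0.01) none of the 4 was called.

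Leaving out 0 h replicate 2, the highest of the 3, ended each of these 4 calls of Hsp90ab1. The call at 4 h was also lost without 4 h replicate 1 or 2, that at 6 h without 6 h replicate 2, that at 8 h without 8 h replicate 2 and that at 10 h without any one of its 6 libraries. By 24 h the values were back at 1192, 1324 and 1542 FPKM. The ratio of Hsp90ab1 to Hsp90aa1 ran from 2.69 to 6.48 over the 44 libraries, with a median of 3.78, and at no replicated time point did its libraries lie apart from those of 0 h.

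The genes of the mitochondrial chaperonin peaked at 24 h. Hspe1, which encodes the HSP10 lid, was at 245.3, 241.1 and 217.2 FPKM at 0 h and 536.6, 386.1 and 573.1 at 24 h. Each library of 24 h was thus above the highest of 0 h. The log2 change was 1.07 ± 0.16 (adjusted p = 2.628e-06). Hspe1 rose at 7 of the 13 later time points, each from 8 to 96 h, with log2 changes of 0.47, 0.68 and 0.76 at 8, 10 and 12 h and 0.46, 0.57 and 0.54 at 48, 72 and 96 h. The calls at 8, 48 and 96 h were each lost without a single library: 0 h replicate 3 or 8 h replicate 1 for the first, 0 h replicate 3 or 48 h replicate 1 for the next, and any library of 0 h or 96 h replicate 3 for the last.

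Hspe1 was also the member called between 6 and 24 h, a step that does not use the 0 h libraries and in which 0.964% of all genes were called higher and 1.11% lower. It rose by 0.69 ± 0.16 (adjusted p = 0.01913), from 321.5, 317.4 and 278.4 FPKM at 6 h. The call was lost without 6 h replicate 2 or 3 or 24 h replicate 1 or 3, and over all single-library omissions the change ran from 0.58 to 0.86. Across that step the stromal sum went from 10720 to 9251 FPKM and the blood-cell sum from 938.4 to 656.5. From 24 to 144 h Hspe1 fell by 0.59 (SE 0.16, adjusted p = 0.004848), to 309.9, 453.0 and 246.0 FPKM, with 1 library of 144 h within the range of 24 h. Without 144 h replicate 3 the fall was -0.39 (adjusted p = 0.06782).

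Hspd1, which encodes HSP60, moved less. It had 270.8, 250.9 and 230.3 FPKM in the 0 h libraries, 201.8, 216.4 and 218.1 in those of 2 h, and 395.4, 314.3 and 427.2 in those of 24 h. The log2 change was -0.24 at 2 h, which was not called, and 0.59 ± 0.16 at 24 h (adjusted p = 0.003927). At 10 h it was 0.40 (adjusted p = 0.04625), a call lost without any library of 0 h, or without 10 h replicate 1 or 3. The 24 h call held without any one library, and was lost when all libraries of replicate 1 (adjusted p = 0.05404) or of replicate 3 (0.06193) were left out.

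Hspe1 and Hspd1 are known to be transcribed in opposite directions from a shared region, and in the RefSeq table a 300-base window of Hspe1 overlaps one of Hspd1 by 285 bases. The stretch of Hspe1 printed above, with its run of repeats 89 bases before the start site, lies in both. Their FPKM did not keep 1 ratio. Hspe1 over Hspd1 was 0.906, 0.961 and 0.943 in the 0 h libraries, 1.25, 1.41 and 1.14 in those of 0.5 h, and 0.912, 0.857 and 0.929 in those of 4 h. At 24 h it was 1.36, 1.23 and 1.34. The ratio was higher in all 3 libraries than in any of 0 h at 11 of the 13 later time points, the others being 4 and 6 h. For those 11, the two-sided exact permutation test gave p = 0.1, the smallest that 3 against 3 libraries allow, and 0.217 after Benjamini-Hochberg adjustment over 39 comparisons of 3 ratios. All 11 share the 0 h libraries, and at 96 h the lowest library (0.965) was barely above the highest of 0 h (0.961).

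**Figure D4:**
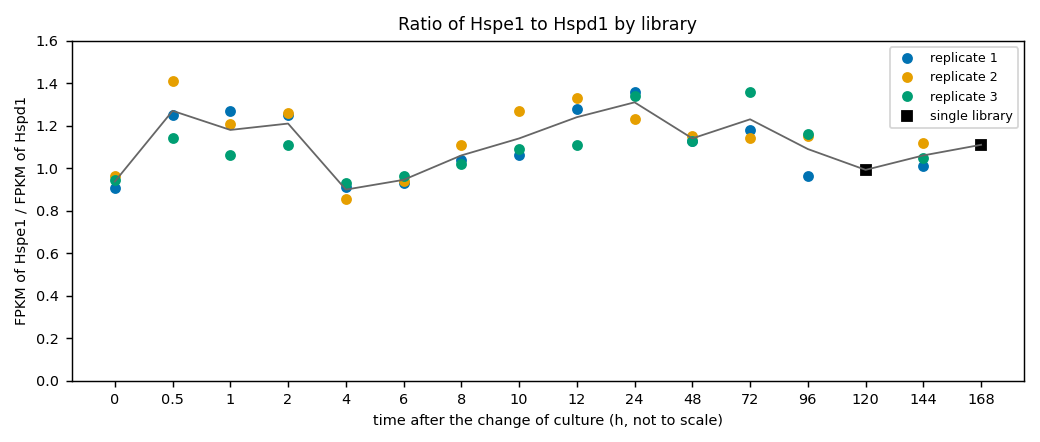
FPKM of Hspe1 divided by that of Hspd1 (vertical axis, from 0) in each library against time after the change in h (not to scale); colours are replicates, black squares the single libraries and the line joins means. The means of 0, 0.5, 4 and 24 h are 0.937, 1.27, 0.899 and 1.31.

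Hspb1, the small heat shock protein HSP27, was near or at the lower end of detection. It was listed at 0 in replicate 1 at every time point. At 4, 6, 8 and 10 h it stood at 7.97, 7.71, 7.99 and 9.36 FPKM in replicate 3, and at 1.06, 3.26, 2.15 and 1.06 in replicate 2. The replicates thus stand in the same order as for Hspa1a and Hspa1b at these times. The change at 6 h was 1.55 ± 0.77 (adjusted p = 0.1141), which did not pass, and no other comparison of Hspb1 was called. Over single-library omissions the change at 6 h ran from 0.86 to 2.42, the highest without 6 h replicate 1, where Hspb1 was listed at 0. A relative depth, estimated from genes under 1 FPKM, was 0.584, 0.605, 0.629 and 0.612 at 4, 6, 8 and 10 h in replicate 1. In replicate 3 this depth was 1.05, 2.26, 0.698 and 0.745.

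The other genes of the chaperone network were counted from lists chosen by function. At 0.5, 2, 6, 24, 72 and 144 h, 14.3%, 16.5%, 19%, 20.8%, 17.2% and 5.64% of all genes were called higher. The shares called lower were 7.29%, 18.5%, 19.2%, 22.5%, 8.23% and 3.24%. No list was tested against these shares, and several counts below lie near them. The list of heat shock factors had 3 genes tested, among them Hsbp1, which is not a factor but encodes a protein that binds HSF1. Hsf1 (20.6 ± 5.54 FPKM at 0 h and 32.5 ± 4.51 at 24 h, n = 3, adjusted p = 0.02733) and Hsbp1 rose at 24 h. In this list 1 gene was also higher at 1 h, 2 at 10 h and 1 at 12 h, beside 16.8%, 21.1% and 21.6% of all genes. None was called at 0.5, 2, 6, 72 or 144 h. Of 8 other HSP70 and HSP110 genes 1 rose at 0.5 h, and 2 rose and 1 fell at 24 h. Hspa4, a further HSP110 gene, was among those higher at 24 h, with 108.3 ± 6.29 FPKM beside 81.5 ± 7.78 at 0 h (adjusted p = 0.01418). Of the 8 subunit genes of the cytosolic chaperonin TRiC, Cct2 was the one called at 6 and 24 h, at 0.49 and 0.46 on the log2 scale.

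Of 14 other J-domain genes, 3 rose and 1 fell at 0.5 h, 3 rose and 2 fell at 2 h, and 5 rose and 1 fell at 6 h. Beside these stand 14.3%, 16.5% and 19% of all genes called higher and 7.29%, 18.5% and 19.2% lower. Dnajb4, a close relative of Dnajb1, went from 4.92 ± 2.19 FPKM at 0 h to 22.5 ± 0.544 at 0.5 h (n = 3 each, log2 change 2.05, adjusted p = 1.047e-06). At 24 h it was still 1.70 higher, when Dnajb1 was not called. Of 9 nucleotide exchange and BAG genes, 1 rose and 2 fell at 0.5 h, and 3 rose and 2 fell at 24 h. At 24 h 20.8% of all genes were called higher and 22.5% lower. Bag3, a co-chaperone that links HSP70 to small heat shock proteins, went from 4.29 ± 2.85 to 17.2 ± 1.45 FPKM at 0.5 h (adjusted p = 0.0001745). From 24 to 144 h Dnajb4 and Bag3 changed by -1.15 and -1.81. The median change of the stromal markers was 2.41 at 0.5 h, 2.68 at 24 h and -1.58 from 24 to 144 h. The part of the feeder cells in the changes of Dnajb4 and Bag3 was not tested. The HSP70 co-chaperone St13 rose from 137.3 ± 7.11 FPKM at 6 h to 255 ± 70.2 at 24 h (log2 change 0.86, adjusted p = 0.0001856), the same step at which Hspe1 was called.

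Of 8 small heat shock protein genes tested, 2, 3, 2, 4, 2 and 2 rose at 0.5, 2, 6, 24, 72 and 144 h, and 1 fell at each of the last 3 times. The shares of all genes called higher were 14.3%, 16.5%, 19%, 20.8%, 17.2% and 5.64%. Those called lower at the last 3 times were 22.5%, 8.23% and 3.24%. Hspb8 and Cryab rose at each of the 6 times. Hspb3 was the gene that fell, by 2.21, 3.10 and 2.19 on the log2 scale at 24, 72 and 144 h (adjusted p = 0.003617, 0.0002239 and 0.01858), from 13.2 ± 6.84 FPKM at 0 h. Scaled to the blood-cell markers these changes were -0.78, -2.12 and -1.47, and the 72 h call alone held. At 24 h the changes of Hspb8 and Cryab were 2.90 and 2.71, and at 144 h 1.25 and 1.25. From 24 to 144 h both fell, by 1.65 and 1.46. Of 8 further genes known to be induced by heat or stress, 7 rose at 0.5 h and 6 at 2 h, beside 14.3% and 16.5% of all genes. They include Serpinh1, the collagen chaperone HSP47, at 74.4 ± 50.6 FPKM at 0 h and 307.9 ± 14.1 at 0.5 h, and the metallothionein gene Mt2, at 12.8 ± 3.47 and 56.4 ± 12.6. The stromal markers, which were all called higher from 0.5 to 72 h and of which 9 of 23 were called at 144 h, moved with these genes, and their part in the result was not tested.

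The chaperone lists with the most lower calls were the HSP90 co-chaperones and the mitochondrial genes. Of 16 HSP90 co-chaperone genes, 6 fell and none rose at 0.5 h, 8 fell and 1 rose at 2 h, 6 fell and 2 rose at 6 h and 4 fell and 3 rose at 24 h, but scaled to the blood-cell markers none was lower and 7, 6, 13 and 16 were higher at these times. Without that scaling 14.3%, 16.5%, 19% and 20.8% of all genes were called higher and 7.29%, 18.5%, 19.2% and 22.5% lower. With it 38.2%, 46.8%, 69.7% and 81.2% of all genes were called, nearly all of them higher. Fkbp4, an immunophilin of HSP90 complexes, went from 101.2 ± 14.3 FPKM at 0 h to 47.7 ± 4.69 at 6 h, a change of -1.07 (adjusted p = 1.299e-05) that reads 0.45 higher (0.1229) scaled to the blood-cell markers. It then rose by 0.75 from 6 to 24 h (adjusted p = 0.01967), as did Stip1, which joins HSP70 to HSP90, by 0.66 (0.009933). Of 12 other mitochondrial chaperone and protease genes, 2, 4, 4 and 5 fell at 0.5, 2, 6 and 24 h, and 1 rose, at 6 h, while scaled to the blood-cell markers 4, 4, 11 and 10 were higher and none lower. The same shares of all genes stand beside these counts. Trap1, the mitochondrial HSP90, was at 53.5 ± 4.35 FPKM at 0 h and 34.4 ± 7.41 at 24 h, when Hspd1 and Hspe1 were at their highest, and it too turns higher (1.53) scaled to the blood-cell markers. The blood-cell markers themselves were called lower at 13, 18, 18 and 20 of 20 at 0.5, 2, 6 and 24 h.

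**Figure D5:**
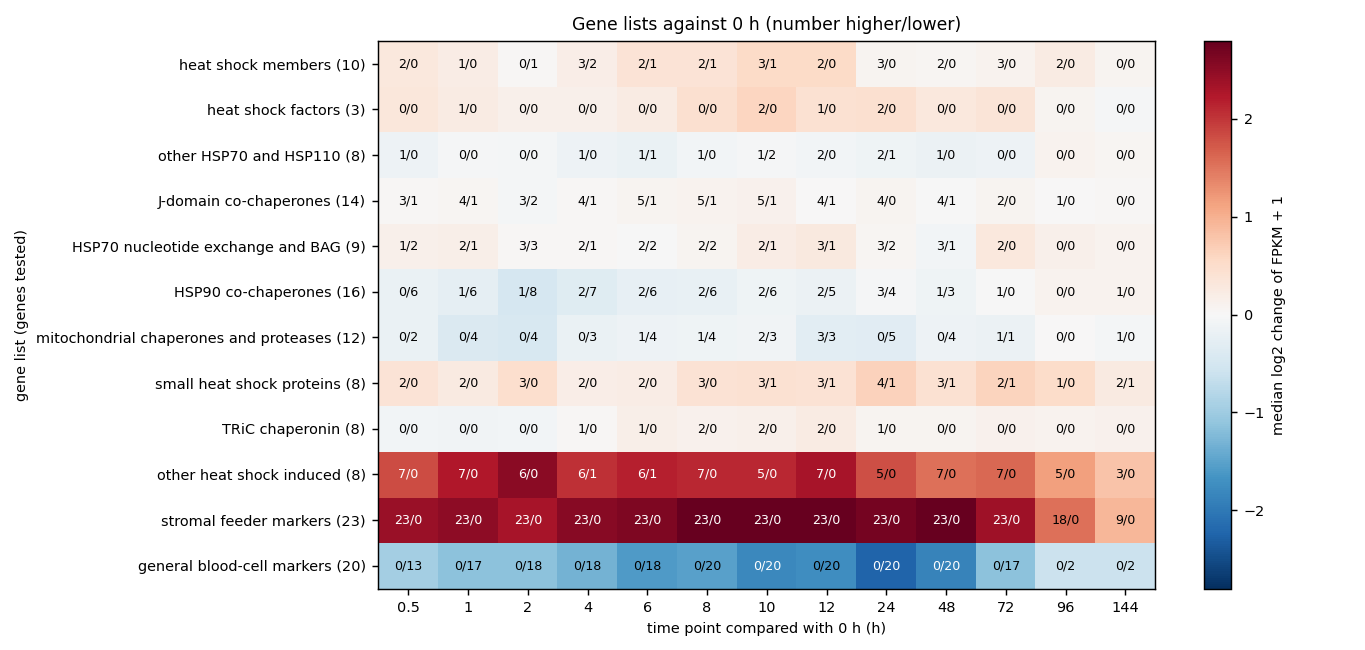
Median log2 change of FPKM + 1 against 0 h (colour) of each gene list (rows, with the number of genes tested) at 13 later time points (columns, in h); the numbers in a cell are genes called higher and lower. The 10 heat shock genes in the top row reach at most 3 higher and 2 lower, and the HSP90 co-chaperones reach 1 higher and 8 lower at 2 h. The row of heat shock factors includes Hsbp1, whose product binds HSF1.

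Likeness of course was described by the Pearson correlation of time-point means of log2(FPKM + 1) over the 14 replicated time points, which share the same libraries. Among the members, Hspa1a and Hspa1b correlated at 0.987, Hsph1 and Hspe1 at 0.908 and Hsp90aa1 and Hsp90ab1 at 0.883, while Hsp90ab1 and Hspa1a stood at -0.844. Reads of Hspa1a and Hspa1b may have been split between these near-identical copies, so their likeness may come in part from that split. Over all genes with a mean of at least 5 FPKM, the course most like that of Dnajb1 was that of Btg2 (0.949), followed by Ier2 and Kdm6b (0.92 each). For Hsph1 it was Lrrc20 (0.942), Smarcb1 (0.939) and Psmd3 (0.917), and for Hspe1 Mrpl42 (0.951), Tk1 (0.936) and Bak1 (0.908). Hspd1 was most like Pa2g4 (0.944), Kpna2 (0.924) and Mrpl12 (0.923), and Hsp90ab1 most like Dctpp1 (0.964), Ssrp1 (0.954) and Ube2m (0.95). The nearest to Hspa1a was Chuk (0.937) and to Hspa1b Snhg1 (0.927). The nearest to Hspa8 was Cant1 (0.924), to Hsp90aa1 Psip1 (0.941) and to Hspb1 Sec23b (0.924). Hsp90aa1 and Hspb1 had not passed the F test, and Hspb1 was listed at 0 in 27 of the 44 libraries. All these matches are the highest of many genes, and none was tested.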

How the data were processed

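RNA-seq of poly(A) RNA from 44 libraries was used. The deposited values are FPKM per gene, made by the authors with TopHat2 2.1.0 and Cufflinks 2.1.1 on the mm9 build, per the submitters' processing notes. The table's name calls them corrected, and what was corrected is not given in the sources used here. Read depth is unknown, so no counting interval is given.

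Genes with at least 1 FPKM in 3 of the 42 libraries of replicated time points (13907 of 23234) were fitted as log2(FPKM + 1) with limma 3.58.1 in R 4.3.3, with 1 mean per time point and a mean-variance trend. A fold change on this scale understates that of low genes. P-values were Benjamini-Hochberg adjusted over all genes tested, with a call at an adjusted p under 0.05. The libraries at 120 and 168 h were only described. The scripts were tested on simulated data. Ratios were compared with exact two-sided permutation tests in scipy 1.17.1.

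The members and lists were chosen with earlier results of these data known. Named list genes are among up to 3 called genes with the largest change per main comparison. Likeness was ranked among genes with a mean of at least 5 FPKM, without small RNA genes. Promoter windows came from RefSeq (GRCm38.p6), and no coordinate of the mm9 files was used. Alternatives were another pseudocount (0.1), no filter, other scalings, covariates and blocks, and omitted libraries.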

Additional observations from a re-analysis of the deposited data

Results flagged for a closer look

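The single libraries at 120 and 168 h entered no test, and some members there lay above all 3 libraries of 0 h. At 120 h these were Hsph1 at 43.86 FPKM, Hspa8 at 1451, Hspd1 at 279.6 and Hspe1 at 277.4, while Hspa1a was below all 3. At 168 h they were Hsph1 at 28.26 FPKM and Hspe1 at 246.1, just above the highest 0 h libraries of 28.1 and 245.3, while Hspa1a, Hspa1b, Hsp90aa1 and Hspd1 were below all 3. With 1 library at each time these values have no replicate check.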

How the results depend on the processing

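The members called were 2, 1, 3, 3, 3 and 0 at 0.5, 2, 6, 24, 72 and 144 h against 0 h, 1 at 24 h against 6 h and 2 at 144 h against 24 h, and 8 differed at some time point. Scaled to the blood-cell markers these were 6, 9, 9, 7, 7 and 3, then 8 and 7, beside 38.2%, 46.8%, 69.7%, 81.2%, 61.3% and 8.97%, then 22.1% and 76.5%, of all genes called. With the stromal mean as covariate they were 0 at 0.5, 2, 6, 24 and 72 h and 0 at 144 h against 24 h. Under it between 0.0288% and 0.482% of all genes were called at these 5 times, and 2.62% at 144 h against 24 h. Median-ratio scaling gave 0, 5, 4 and 1 at 2, 6, 24 and 144 h, and quantile normalization 0, 1, 5 and 2 at 2, 6, 24 and 72 h. The shares of all genes called were 32.5%, 37.3%, 42.8% and 8.96% with the former. They were 34.7%, 38.6%, 42.8% and 27.4% with the latter. A minimum log2 change of 1 left 1, 0, 1 and 0 at 0.5, 2, 6 and 72 h, 0 at 24 h against 6 h, 0 at 144 h against 24 h and 5 over all times. The share of all genes under that minimum is not given here. With the runs of library codes as block there were 4 at 2 h, 7 at 6 h, 4 at 24 h against 6 h and 4 at 144 h against 24 h. The shares of all genes called were 41%, 43.2%, 2.88% and 28.2% in turn. From 48 h on no run holds a 0 h library. The cause of these differences was not tested.

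The replicate block gave 4, 5 and 2 members at 2, 6 and 144 h and 3 for 24 h against 6 h, and elsewhere the counts without it. In these 4 comparisons it called 38.6%, 40.9%, 12% and 3.14% of all genes. Residuals of libraries with the same replicate number had a median correlation of 0.069 over 273 pairs (from -0.17 to 0.411, 93 over 0.1), and of 0.085 over the 145 of these within 1 run of codes (57 over 0.1). Over 546 pairs with other numbers the median was -0.032, with 11 over 0.1. Libraries of the same number thus tended to deviate together, but not in every pair and with no label that ties them, so they were not treated as paired.

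Leaving out a library or a replicate gave 1 to 2 members at 0.5 h, 0 to 2 at 2 h, 1 to 5 at 6 h, 2 to 4 at 24 h, 1 to 3 at 72 h, 0 to 2 at 144 h, 0 to 3 at 24 h against 6 h, 1 to 3 at 144 h against 24 h and 5 to 8 over all times. At 0.5 h the lower count came without replicate 2, 0 h replicate 1 or 0.5 h replicate 1. At 2 h it was 2 without replicate 1 or 2 h replicate 1, and 0 without replicate 2, 0 h replicate 1 or 0 h replicate 2. At 6 h it was 1 without replicate 2, 0 h replicate 2 or 6 h replicate 2, and 5 without 6 h replicate 1. At 72 h it was 1 without replicate 1, and at 144 h 2 without replicate 3 or 144 h replicate 3. For 24 h against 6 h it was 2 without replicate 1, 3 without 6 h replicate 1, and 0 without replicate 2, replicate 3, 6 h replicate 2 or 3, or 24 h replicate 1 or 3. For 144 h against 24 h it was 1 without replicate 1, replicate 3 or 144 h replicate 3. The shares of all genes called also fell when replicate 1 or 2 was left out. At 0.5 h they were 7.8%, 6.72% and 23.6% without replicates 1, 2 and 3, and 21.6% with all. At 6 h they were 25.2%, 20.3% and 36.3%, and 38.1% with all. Between 6 and 24 h they were 0.18%, 0.0288% and 1.22%, and 2.08% with all. Shares with a single library left out are not given here.

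Reversals, meaning a sign turned where the change was called here or under the alternative, came only from scaling to the blood-cell markers among the alternatives run; some uncalled changes near 0 also turned sign when a library was left out, such as Hspd1 at 1 h (-0.11 to 0.01). Log2 changes against 0 h became, at 0.5 h, 0.68 for Hsp90aa1 and 0.75 for Hspd1; at 1 h 0.79 for Hsp90aa1, 0.82 for Hsp90ab1 and 1.00 for Hspd1; at 2 h 0.75 for Hspa8, 0.90 for Hsp90aa1, 0.82 for Hsp90ab1 and 0.86 for Hspd1. At 4 h they became 0.96 for Hspa8, 1.10 for Dnajb1, 0.93 for Hsp90aa1 and 0.90 for Hsp90ab1, and at 6 h 1.46, 1.16, 1.21 and 1.14 for the same genes. At 8 h these were 1.55, 1.24, 1.16 and 1.17. For Hsp90aa1 and Hsp90ab1 they were 1.53 and 1.47 for 10 h, 1.43 and 1.50 for 12 h, and 1.73 and 1.65 for 48 h. Dnajb1 was at 1.65, 1.78, 1.75 and 0.99 at 12, 24, 48 and 72 h, and Hsp90aa1 at 0.96 at 72 h. From 24 to 144 h Hspa8 was at -1.59, Dnajb1 at -1.21 and Hsp90ab1 at -1.56.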
